A study of Mus musculus with 6 samples.

Results

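This account covers 10 genes of neurofilaments and the axonal cytoskeleton in demyelinated mouse brain: the filament chains Nefl, Nefm, Nefh and Ina, the growth-associated genes Stmn2 and Gap43, the microtubule-associated genes Mapt, Map1b and Map2, and the neuronal tubulin Tubb3. They were picked by gene symbol from 22180 genes that the array measures with a probe set of 1 symbol, and each was read from its brightest such probe set. All 10 were found. The samples were macrodissected brain lesions of mice aged 5 to 6 weeks. LPC, a lipid that strips myelin locally, had been injected to make each lesion, CID was given 48 hours later, and the tissue was taken on day 7 after the lesion. The labels give this course for both groups, which were 3 wild type lesions and 3 lesions of transgenic mice in which CID removes GFAP-positive astrocytes that do not divide. The promoter of the transgene is not given in the labels. They do not say either that lesions of one genotype were from different mice, so a p-value reflects the spread of these samples, which may be partly technical.

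Neurofilaments are the space-filling intermediate filaments of axons. They are built from a light, a medium and a heavy chain together with alpha-internexin, and their number sets the calibre of large myelinated axons. Microtubules run beside them, are assembled from tubulins and bound by tau and the MAP proteins, and carry transport between the cell body and the terminal. Most messenger RNA for these proteins lies in neuronal cell bodies and dendrites, so a piece of tissue can hold axons without holding the RNA of the neurons that sent them.

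All values are log2 RMA intensities, and differences are transgenic minus wild type unless another is named. Genes were tested with limma in 1 fit over all 41345 probe sets, with Benjamini-Hochberg adjustment at 0.05. None of the probe sets passed (0%), also without moderation of the variances; 0.213 was the smallest adjusted p, and 3668 probe sets had an unadjusted p under 0.05. The arrays differed in more than genotype. Xist and the Y-linked genes gave a female pattern in all 3 wild type lesions and in transgenic replicate 2, and a male pattern in transgenic replicates 1 and 3. The mean of 9 striatal neuron genes was 8.11 and 8.67 in wild type replicates 2 and 3 and between 6.18 and 6.81 on the other arrays. Transgenic replicate 1 was the lowest of the 6 arrays for 50.6% of the 5760 genes with a mean level of at least 7. Gfap, the filament gene that marks the targeted cells, had a level of 9.37 ± 0.40 in the wild type and 8.99 ± 0.22 in the transgenic group (SD, n = 3), with an adjusted p of 0.695 in limma.

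Among the 10 genes, the 4 neurofilament chains had higher means in transgenic lesions, by 1.36- to 1.47-fold, while the microtubule-associated genes had slightly lower ones. The differences ran from 0.55 for Ina down to -0.30 for Map2, with a median of 0.22 beside -0.01 over all genes; 6 were positive and 4 negative. None of the 10 passed the adjusted threshold, with adjusted p-values from 0.447 to 0.947 in limma. Only Ina and Nefh had an unadjusted p under 0.05, 2 of 10 against 8.87% of all probe sets in either direction and 4.82% in the higher direction. The same 2 genes had groups that did not overlap, again 2 of 10 against 16.1% of all probe sets, or 8.54% in the higher direction. Both counts were above these background shares, but each rests on 2 of 10 genes and was not tested against them. The number past an unadjusted p of 0.05 was 1 when wild type replicate 1 or 2 was left out, where 4.91% and 5.45% of all probe sets passed it, and 4 when replicate 3 was left out, where 6.76% did. The number without overlap became 4 without wild type replicate 3, where 25.6% of all probe sets did not overlap, and 6 without transgenic replicate 1, where 33.1% did not. In bulk tissue, fewer cells of a type and less RNA per cell cannot be told apart.

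**Figure D1:**
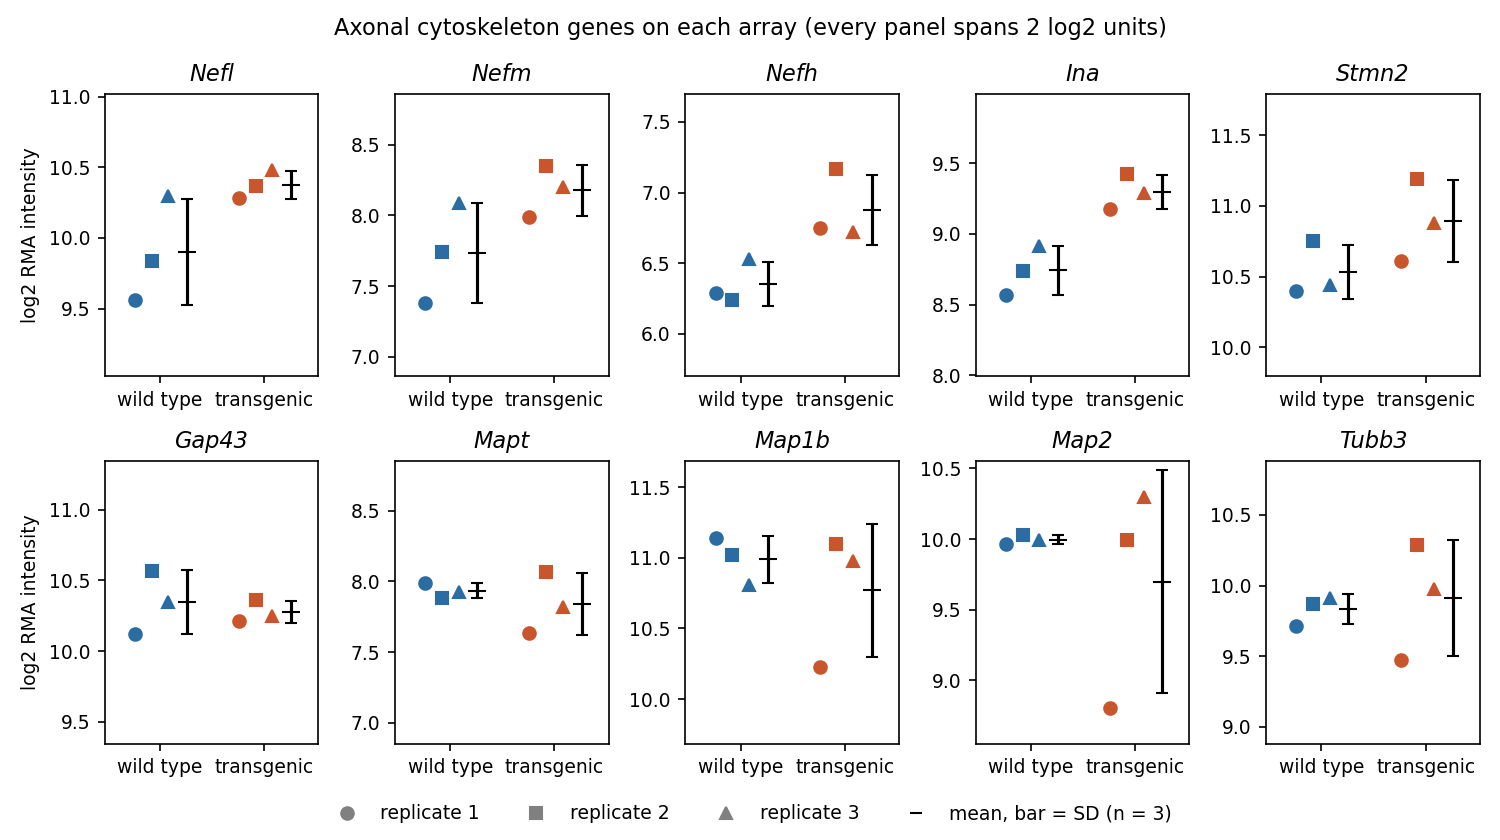
Each panel gives 1 gene, with log2 RMA intensity on the vertical axis over a span of 2 units, the 3 wild type arrays in blue and the 3 transgenic arrays in orange, and the mean with its SD beside each group. In Ina and Nefh every transgenic point lies above every wild type point, and in Mapt, Map1b, Map2 and Tubb3 transgenic replicate 1 is the lowest point.

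The stretch before the start site is shown for Ina and Map2, the genes at the upper and lower end of the 10 differences. Each run is the 250 bases that end just before the annotated start, on the plus strand of GRCm38.p6, taken from RefSeq; the table held such a stretch for 4 of the 10 genes. Capitals mark each match to GGGCGG, the GC box bound by Sp-family factors, read on both strands (GGGCGG or CCGCCC). Ina lies at chr19:47014431-47014680 and Map2 at chr1:66175079-66175328.
Ina: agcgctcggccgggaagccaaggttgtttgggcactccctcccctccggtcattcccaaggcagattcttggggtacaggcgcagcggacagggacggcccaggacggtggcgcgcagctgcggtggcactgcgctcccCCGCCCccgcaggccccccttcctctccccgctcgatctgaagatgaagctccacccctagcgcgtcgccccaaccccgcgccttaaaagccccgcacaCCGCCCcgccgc
Map2: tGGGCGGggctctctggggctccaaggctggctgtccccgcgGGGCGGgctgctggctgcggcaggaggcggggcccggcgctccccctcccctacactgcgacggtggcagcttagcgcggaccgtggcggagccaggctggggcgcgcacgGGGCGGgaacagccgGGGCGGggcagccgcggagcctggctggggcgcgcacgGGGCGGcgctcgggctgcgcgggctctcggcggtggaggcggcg
Ina held 2 such matches and Map2 held 5, and 32.7% of 32851 promoter stretches of this length held at least 1. Neither held TATAAA, the TATA box, which was found in 12.4% of all stretches on either strand. The share of G and C was 70.8% in Ina and 81.2% in Map2, beside a median of 52.4% over all stretches. Both ends of the range of differences thus had GC-rich starts, and these letters do not show whether a factor was bound.

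Ina encodes alpha-internexin, the neurofilament chain that appears early in neurons and persists in mature central axons. Its level was 8.57, 8.74 and 8.92 in the wild type lesions, in the order of their replicate numbers, and 9.18, 9.42 and 9.29 in the transgenic lesions; values of single arrays follow this order below. All 3 transgenic arrays were above all 3 wild type arrays. The difference was 0.55 (SE 0.155), a 1.47-fold higher level, with an interval from 0.19 to 0.92, an unadjusted p of 0.00853 and an adjusted p of 0.447 in limma. With any 1 array left out, the difference stayed between 0.47 and 0.64. Ina was the only one of the 10 genes to pass the adjusted threshold under any alternative, at 0.0257 with array weights, a fit that gave transgenic replicate 3 a weight of 7.67 and the other transgenic arrays 0.284 and 0.258. In that fit 2611 of the 41345 probe sets (6.32%) passed the adjusted threshold, so 1 of the 10 genes lay near the share of all probe sets. Its adjusted p lay between 0.132 and 0.986 under the remaining alternatives.

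Nefh encodes the heavy chain, whose long phosphorylated tail projects from the filament and is the last of the set to accumulate as axons mature. It stood at 6.29, 6.24 and 6.53 in wild type lesions and at 6.75, 7.16 and 6.72 in transgenic lesions. The groups did not overlap, and transgenic replicate 2 was the highest array. The difference was 0.53 (SE 0.177), or 1.44-fold, with an interval from 0.11 to 0.94, an unadjusted p of 0.0196 and an adjusted p of 0.492 in limma. Leaving out 1 array gave differences between 0.39, without transgenic replicate 2, and 0.61, without wild type replicate 3. The unadjusted p was 0.0616 without wild type replicate 1, and 0.0709 when replicate 2 of that group was left out.

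Nefl encodes the light chain, a core subunit of the filament and a protein measured in blood and cerebrospinal fluid as a sign of axonal injury. Its wild type values were 9.56, 9.84 and 10.30, and its transgenic values were 10.28, 10.37 and 10.48. Wild type replicate 3 lay level with transgenic replicate 1, so the groups overlapped. The difference was 0.48 (SE 0.207), or 1.39-fold, with an interval from -0.01 to 0.96, an unadjusted p of 0.0523 and an adjusted p of 0.57 in limma. The wild type SD was 0.37 and the transgenic SD 0.10, so most of the spread was among the wild type arrays. Leaving out wild type replicate 1 gave a difference of 0.31, and leaving out replicate 3 gave 0.68.

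Nefm encodes the medium chain, which with the heavy chain forms the side arms between filaments. It stood at 7.38, 7.74 and 8.09 in wild type lesions and at 7.99, 8.35 and 8.20 in transgenic lesions. Transgenic replicate 1 lay below wild type replicate 3, and the other arrays kept to their groups. The difference was 0.44 (SE 0.211), or 1.36-fold, with an interval from -0.05 to 0.94, an unadjusted p of 0.0718 and an adjusted p of 0.601 in limma. It was 0.27 without wild type replicate 1, and 0.62 without replicate 3 of the same group. A second probe set, which the annotation assigns to both Nefm and A230070E04Rik and which was therefore not used for naming, gave 6.44, 6.85 and 7.32 against 7.49, 7.71 and 7.54. Its groups did not overlap and its difference was 0.71 (unadjusted p 0.0171, adjusted p 0.489 in limma), so both probe sets were higher by mean but only the shared one separated the groups. In RefSeq's table for the assembly GRCm38.p6, Nefl and Nefm are neighbours, with 1 gene and 0 protein-coding genes between them.

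The 4 chains ordered the arrays in a like way. Their mean deviation from the wild type mean was -0.23, -0.04 and 0.28 on the wild type arrays and 0.37, 0.65 and 0.49 on the transgenic arrays. Wild type replicate 1 was thus the lowest array and wild type replicate 3 the wild type array nearest to the transgenic ones. As a description over these 6 arrays, which share their normalization and the difference between the groups, the Pearson correlation with the mean of Nefl, Nefm and Nefh (without the gene itself) was 0.968 for Ina, 0.957 for Nefm, 0.903 for Nefl and 0.815 for Nefh. It was 0.688 for Stmn2 and 0.50 for Tubb3, and between -0.23 and 0.07 for Gap43, Mapt, Map1b and Map2. Over all 6 arrays the levels of tau and of both MAP genes thus did not track those of the filament chains. Transgenic replicate 1 was the lowest array for each of Mapt, Map1b and Map2, and correlations without it were not computed.

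**Figure D2:**
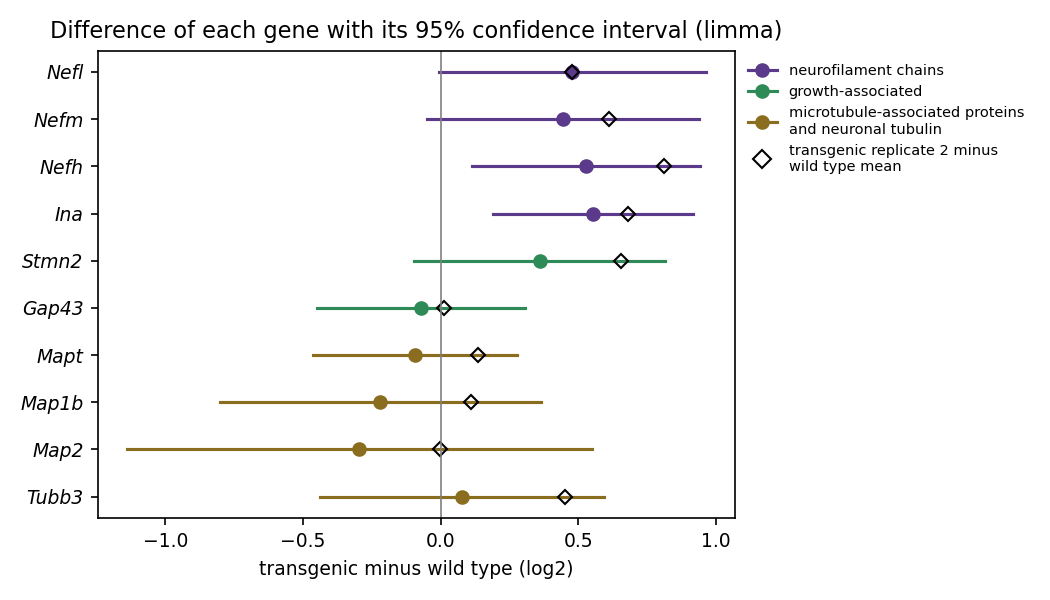
The horizontal axis gives the difference, transgenic minus wild type on the log2 scale, for the 10 genes, with filled circles for the limma estimate, lines for its 95% confidence interval and open diamonds for transgenic replicate 2 minus the wild type mean. The intervals of Ina and Nefh lie above 0, and those of the other 8 genes include it.

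Stmn2 encodes stathmin-2, a tubulin-binding protein of growth cones that axons need for regrowth. Its values were 10.40, 10.75 and 10.44 in wild type and 10.61, 11.19 and 10.88 in transgenic lesions. Transgenic replicates 2 and 3 lay above all wild type arrays, and transgenic replicate 1 lay below wild type replicate 2. The difference was 0.36 (SE 0.194), with an interval from -0.10 to 0.82 and an adjusted p of 0.646 in limma. It ranged from 0.21 without transgenic replicate 2 to 0.50 without transgenic replicate 1.

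Gap43, a membrane-bound protein of growing axon terminals, did not share this pattern. It stood at 10.12, 10.57 and 10.35 in wild type and at 10.21, 10.36 and 10.25 in transgenic lesions. The transgenic arrays lay inside the wild type range. The difference was -0.07 (SE 0.161), with an interval from -0.45 to 0.31 and an adjusted p of 0.929 in limma. Its sign turned without wild type replicate 2, at 0.04.

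The microtubule-associated genes were held apart by 1 transgenic array. Map2 encodes the MAP of dendrites and cell bodies and is used to tell those compartments from axons. Its wild type values were 9.96, 10.03 and 9.99, an SD of 0.03, and its transgenic values were 8.80, 9.99 and 10.30. Transgenic replicate 1 was far below the wild type arrays, whereas replicate 2 was level with the wild type lesions and replicate 3 was above them. The difference was -0.30 (SE 0.361), with an interval from -1.14 to 0.55 and an adjusted p of 0.856 in limma, and without transgenic replicate 1 its sign turned to 0.15.

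Map1b encodes a MAP that is abundant in growing axons. It stood at 11.14, 11.02 and 10.81 in wild type and at 10.23, 11.10 and 10.98 in transgenic lesions. Again transgenic replicate 1 lay below every other array and replicates 2 and 3 lay within the wild type range. The difference was -0.22 (SE 0.249, adjusted p 0.844 in limma), and it was 0.05 without transgenic replicate 1.

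Mapt encodes tau, the MAP of axons. Its wild type values were 7.99, 7.88 and 7.93 and its transgenic values 7.63, 8.07 and 7.82. Transgenic replicate 2 was the highest array and replicate 1 the lowest, so the transgenic lesions enclosed the wild type range. The difference was -0.09 (SE 0.158), with an interval from -0.46 to 0.28 and an adjusted p of 0.903 in limma, and it was 0.01 without transgenic replicate 1.

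Tubb3 encodes the beta-tubulin of neurons. It stood at 9.72, 9.87 and 9.92 in wild type and at 9.47, 10.29 and 9.97 in transgenic lesions. Here too transgenic replicate 1 was lowest, and replicates 2 and 3 were the highest arrays. The difference was 0.08 (SE 0.22, adjusted p 0.947 in limma). It came to 0.30 without transgenic replicate 1 and turned to -0.11 without transgenic replicate 2.

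Transgenic replicate 1 was the lowest array for all 4 of Mapt, Map1b, Map2 and Tubb3, for none of the 4 neurofilament chains and for neither Stmn2 nor Gap43, beside 50.6% of all genes at a mean level of at least 7. Without that array, 9 of the 10 genes had higher means in transgenic lesions and the median difference was 0.40. Without transgenic replicate 2 the median was 0.05 and 5 of 10 were higher. The cause of the low values in transgenic replicate 1 was not tested.

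**Figure D3:**
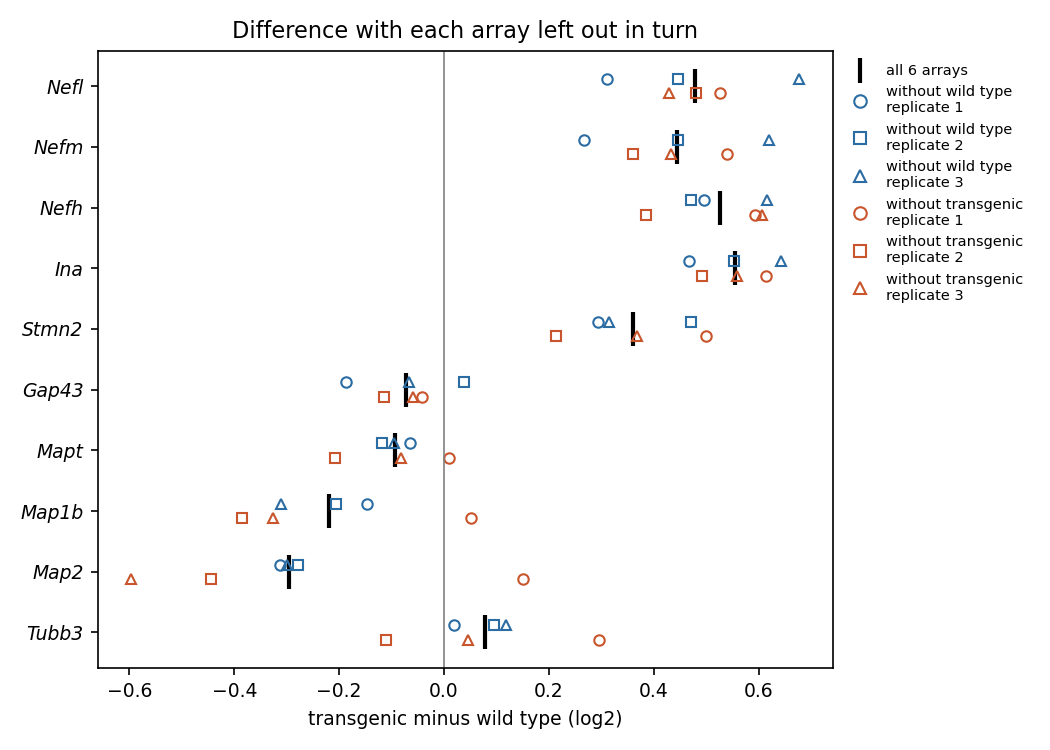
The horizontal axis gives the difference of each gene on the log2 scale with all 6 arrays (black bar) and with each wild type (blue) or transgenic (orange) array left out. The filament chains and Stmn2 stay above 0 throughout, and Mapt, Map1b and Map2 cross 0 only without transgenic replicate 1.

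The female pattern allowed a comparison within 1 sex, resting on 1 transgenic lesion. Transgenic replicate 2 minus the mean of the 3 wild type lesions was 0.68 for Ina, 0.81 for Nefh, 0.61 for Nefm and 0.48 for Nefl; for Ina, Nefh and Nefm it exceeded the difference over all 6 arrays and for Nefl it equalled it after rounding. For Stmn2 it was 0.65 and for Tubb3 0.45, and for Gap43, Mapt, Map1b and Map2 it lay between -0.001 and 0.14. These values equal the genotype term of a fit with sex as a covariate, in which none of the 10 genes passed the adjusted threshold in limma (0.0797 for Nefh, 0.132 for Ina) although 20.8% of all probe sets had an unadjusted p under 0.05. With sex in the fit the median of the 10 differences was 0.46. Transgenic replicate 2 differed in more than the filament chains, and its array median was the lowest, at 5.336. Its mean deviation from the wild type mean was 0.385 for general neuron genes and 0.598 for cortical excitatory neuron genes. For genes of large projection and fast-spiking neurons it was 0.329, for striatal neuron genes -0.848 and for neuroblast genes -0.284.

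Other genes of the axonal cytoskeleton gave no general shift. Over 8 lists of partners of the 10 genes, 117 further genes were measured, of which 52 had higher and 65 lower means, with a median difference of -0.06. An unadjusted p under 0.05 was reached by 9 of the 117 (7.69%), 3 higher and 6 lower, beside 6.98% of all genes, and 0 passed the adjusted threshold in limma, where the smallest value was 0.297. Transgenic replicate 1 was the lowest array for 76 of the 117.

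Among proteins that bind microtubules or sequester tubulin, 11 of 26 were higher and 15 lower. Stmn3, a relative of stathmin-2 in mature neurons, stood at 9.41, 9.85 and 9.73 in wild type and at 10.32, 10.21 and 10.22 in transgenic lesions, without overlap (difference 0.58, adjusted p 0.444 in limma). Tppp3, a tubulin polymerisation-promoting protein, and Map7, which recruits kinesin-1 to microtubules, were lower in every transgenic array, by 0.54 and 0.65 (adjusted p 0.488 and 0.518 in limma). Dpysl2, the semaphorin mediator CRMP2, differed by -0.37, also without overlap. These 3 with Stmn3 had the smallest p-values of the list. At an unadjusted p under 0.05 in limma, 1 of the 26 was higher and 2 were lower, beside 6.98% of all genes. Groups did not overlap for 2 higher and 6 lower genes of the 26, beside 16.1% of all probe sets in either direction.

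The 12 measured tubulin isotypes were evenly split, 6 higher and 6 lower, with a median of 0.01 and 0 past an unadjusted p of 0.05. Tuba1b, a widely expressed alpha-tubulin, differed by 0.20, Tubb4b by 0.18 and Tubb6 by 0.19. Tuba1c spread widely, with 9.14, 9.26 and 8.55 in the wild type group against 9.71, 6.91 and 8.46 in the transgenic group. Copies of the tubulin family are similar enough to share probes, so single isotypes are uncertain.

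Transport motors had a median of -0.10, with 7 of 18 higher and 0 past an unadjusted p of 0.05. Kif2a, a microtubule-depolymerising kinesin, differed by 0.26 and Kif1b, a carrier of mitochondria and synaptic vesicle precursors, by -0.38, both without overlap, while Dctn2, a dynactin subunit, differed by 0.33 and the adaptor Mapk8ip1 by -0.31. Transgenic replicate 1 was lowest for 16 of these 18 genes, and without it the median turned to 0.11. Its mean deviation from the wild type mean was -0.53 for the motors, against 0.14 and 0.12 in transgenic replicates 2 and 3.

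In the spectrin, ankyrin and initial segment list 3 of 11 were higher and 8 lower, and transgenic replicate 1 was lowest for all 11; the median of -0.14 turned to 0.07 without that array. Nfasc, which anchors the initial segment and the node but is also made by oligodendrocytes at the paranode, was lower in every transgenic array (8.93, 8.83 and 8.84 against 8.16, 8.62 and 8.58; adjusted p 0.55 in limma) and was the only one with an unadjusted p under 0.05. Add3, Sptbn1 and Add1, proteins of the spectrin skeleton, differed by -0.23, -0.29 and -0.14. The 6 measured other filament and cross-linker genes had a median of -0.25, which was -0.08 without transgenic replicate 1 and -0.41 without transgenic replicate 3. Vim, a filament of glia and vessels rather than mature neurons, differed by -0.67 (adjusted p 0.561 in limma), and the cross-linkers Macf1 and Dst by -0.36 and -0.30, while Nes differed by -0.14. Transgenic replicate 1 was low for both cross-linkers, at 7.19 for Macf1 and 7.45 for Dst, where the other arrays lay between 8.05 and 8.29 and between 8.30 and 8.51.

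Genes of axon growth and regeneration, which include Stmn2 and Gap43, were split at 11 higher and 10 lower. Rtn4r, the receptor for the myelin inhibitor Nogo, stood at 7.70, 7.68 and 7.80 in wild type and between 8.40 and 8.68 in transgenic lesions. The groups were well apart, with a difference of 0.78, yet the adjusted p was 0.297 in limma. Klf4, a transcription factor that restrains axon growth, differed by 0.43 without overlap, and the adhesion genes Ncam1 and Cd24a by -0.52 and -0.72.

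Of 14 measured kinases and phosphatases of neurofilaments and tau, 9 were higher and 5 lower, and 0 had an unadjusted p under 0.05. Cdk5, a kinase of the neurofilament tails and of tau, differed by 0.23 without overlap, while Mark2, Ppp2r2b and Gsk3b differed by -0.23, 0.16 and -0.14. In the axon degeneration and maintenance list 6 of 13 were higher. Dlk1 and Nmnat3, an NAD-making enzyme, were lower in every transgenic array, by 0.42 and 0.39 (adjusted p 0.508 and 0.513 in limma). Both were dim, with mean levels of 5.59 and 4.76, where the medians of the arrays were 5.34 to 5.59. Nmnat3 thus lay below 5, the minimum of the filter on dim probe sets. Dlk1 encodes a delta-like membrane protein related to Notch ligands and not the axon injury kinase DLK, which is the product of Map3k12; that gene differed by 0.02. Sarm1, the NAD-cleaving enzyme that executes axon degeneration, differed by 0.30 without overlap, and the calpain Capn2 differed by -0.24.

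**Figure D4:**
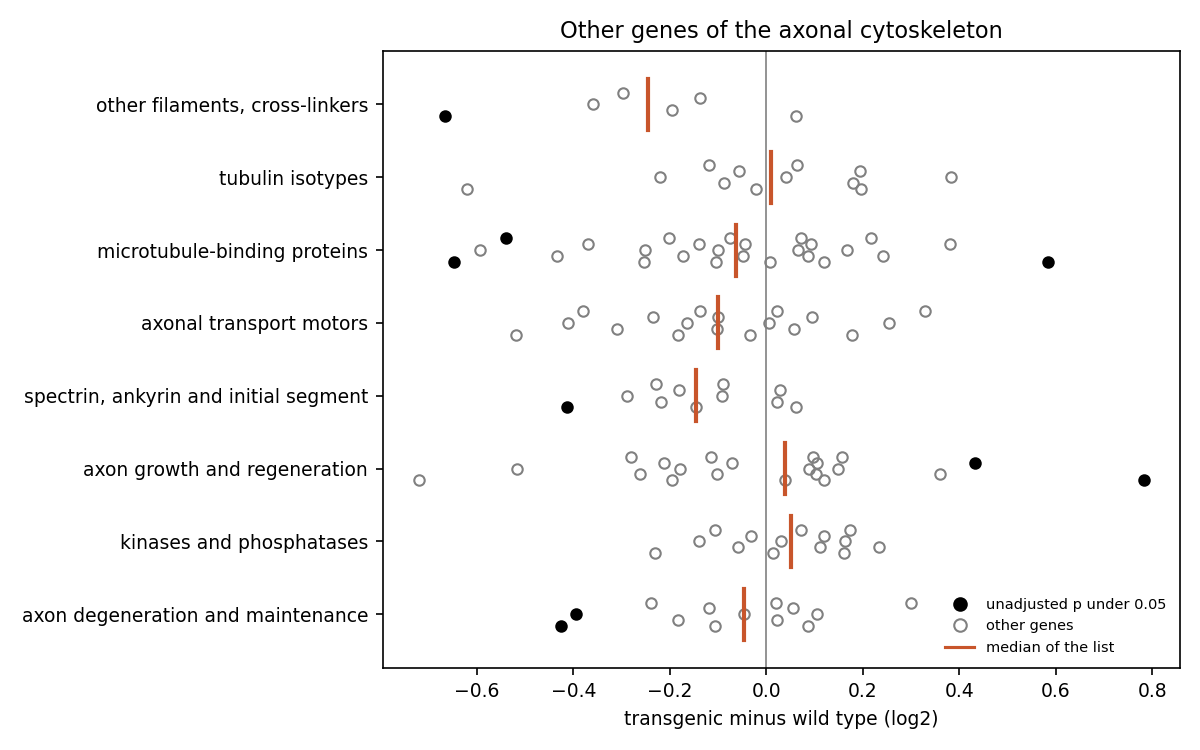
Each circle is 1 gene of 8 lists related to the axonal cytoskeleton, placed by its difference, transgenic minus wild type on the log2 scale; filled circles have an unadjusted p under 0.05 and the orange bar is the median of the list. The medians lie between -0.25 and 0.05. Single genes lie between -0.72 and 0.78, a range that holds the differences of the 4 neurofilament chains. The axon growth list includes Stmn2 and Gap43.

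Markers of cell types and regions differed between the arrays in either direction, and 0 of the marker genes were called after adjustment in limma. The mean of 18 general neuron genes was 9.01 to 9.26 on the wild type arrays and 9.002 to 9.54 on the transgenic arrays. Of these genes 14 of 18 were higher, with a median of 0.15. An unadjusted p under 0.05 in limma was reached by 3 of the 18, beside 6.98% of all genes. They were Slc17a6 (difference 0.71), Elavl2 (0.36) and Elavl4 (0.42). Nrgn differed by 0.47, while the 4 lower genes included Gad2 (-0.31) and Slc32a1 (-0.34). The median of this list rested on single arrays: it was -0.01 without transgenic replicate 2 and 0.32 without transgenic replicate 1. At an unadjusted p under 0.05, 0 genes passed without wild type or transgenic replicate 3 (6.76% and 9.17% of all probe sets). Then 1 passed without wild type or transgenic replicate 2 (5.45% and 10.1%), and 7 without transgenic replicate 1 (12.5%). Transgenic replicate 1 was the lowest array for 8 of the 18 genes. On that array the general neuron genes were 0.15 below the wild type mean on average and the neurofilament chains 0.37 above it. The list of large projection and fast-spiking neurons, whose axons are rich in neurofilaments, ran from 7.17 to 7.68 on the wild type arrays and from 7.47 to 7.76 on the transgenic ones, with 8 of 12 higher. Pvalb, a calcium-binding protein of fast-spiking interneurons, differed by 1.41 and Vamp1, a vesicle protein of fast synapses, by 0.75. Hapln4, of perineuronal nets, differed by 0.53 and the sodium channel Scn1a by 0.60. These 4 of 12 genes had no overlap, beside 16.1% of all probe sets, or 8.54% in the higher direction. Their adjusted p-values were 0.261 to 0.514 in limma. The 4 lower genes were Scn4b (-0.77), Bcl11b (-0.42), Sncg (-0.17) and Kcna1 (-0.15).

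The list means of cortical excitatory neurons ranged from 7.97 to 8.03 in wild type and from 7.87 to 8.60 in transgenic lesions, with 11 of 12 genes higher. At an unadjusted p under 0.05 in limma, 1 of the 12 was higher and 1 lower, beside 6.98% of all genes. Groups did not overlap for 1, beside 16.1% of all probe sets. The median of 0.204 was 0.0941 without transgenic replicate 2 and 0.487 without transgenic replicate 1. Lamp5 differed by 1.05 and Emx1 by 0.51, whereas Foxp2, which is also a gene of striatal neurons, differed by -0.53. Striatal projection neuron genes ranged from 6.18 to 8.67 in wild type and from 6.40 to 6.81 in transgenic lesions; all 9 had lower means, among them Rgs9, Gpr6, Drd1 and Drd2 with differences of -1.48, -1.41, -1.09 and -1.49. Neuroblast genes ranged from 6.46 to 7.09 and from 6.21 to 6.53, with 9 of 10 lower, including Igfbpl1 (-0.63), Sp9 (-0.44), Dlx2 (-0.52) and Dlx5 (-0.72). Wild type replicate 1 had the lowest striatal mean of all arrays and also the lowest neurofilament mean. The highest striatal mean, in wild type replicate 3, went with the highest wild type neurofilament mean. On the transgenic arrays striatal means were 6.40 to 6.81, and the neurofilament chains lay 0.37 to 0.65 above their wild type mean. A link between striatal and neurofilament levels was not tested.

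Of the glial lists, myelin genes had lower means in transgenic lesions throughout, and astrocyte and microglia genes were mixed. An unadjusted p under 0.05 was reached by 13 of 14 myelin genes, 1 of 12 astrocyte genes and 0 of 13 microglia genes, beside 6.98% of all genes, and 0 passed the adjusted threshold in limma. The list mean of the 14 measured myelin genes was 9.16 to 9.59 on wild type arrays and 8.39 to 8.66 on transgenic arrays. All 14 genes had lower means, including Tspan2, Gpr37, Ermn and Myrf with differences of -1.02, -0.95, -1.18 and -0.87. Astrocyte genes lay at 8.39 to 8.48 and 7.95 to 8.51, with 7 of 12 lower, and Sox9, Slc1a3, Mlc1 and Gja1 differed by -0.53, -0.48, -0.30 and -0.36, whereas S100b and Gjb6 differed by 0.38 and 0.225. The astrocyte median of -0.23 turned to 0.06 without transgenic replicate 1 and to 0.05 with sex as a covariate. Microglia and macrophage genes lay at 7.65 to 9.06 and 7.64 to 8.50, highest in wild type replicate 1, where the neurofilament chains were lowest. Transgenic replicate 1 held the 8.50, with the chains 0.37 above their wild type mean. In wild type replicate 3 and transgenic replicates 2 and 3 the list stood at 7.65, 7.64 and 7.64. The chains there deviated by 0.28, 0.65 and 0.49. Tmem119, Itgam, Csf1r and Cx3cr1 differed by -0.26, -0.66, -0.61 and -0.54. In that list 10 of 13 genes had lower means, and Aif1, Tyrobp and Trem2 differed by 0.18, 0.19 and 0.05. Its median of -0.26 turned to 0.20 without wild type replicate 1 and was -0.58 with sex as a covariate. The part of neuronal, regional and glial content in the neurofilament differences was not tested.

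**Figure D5:**
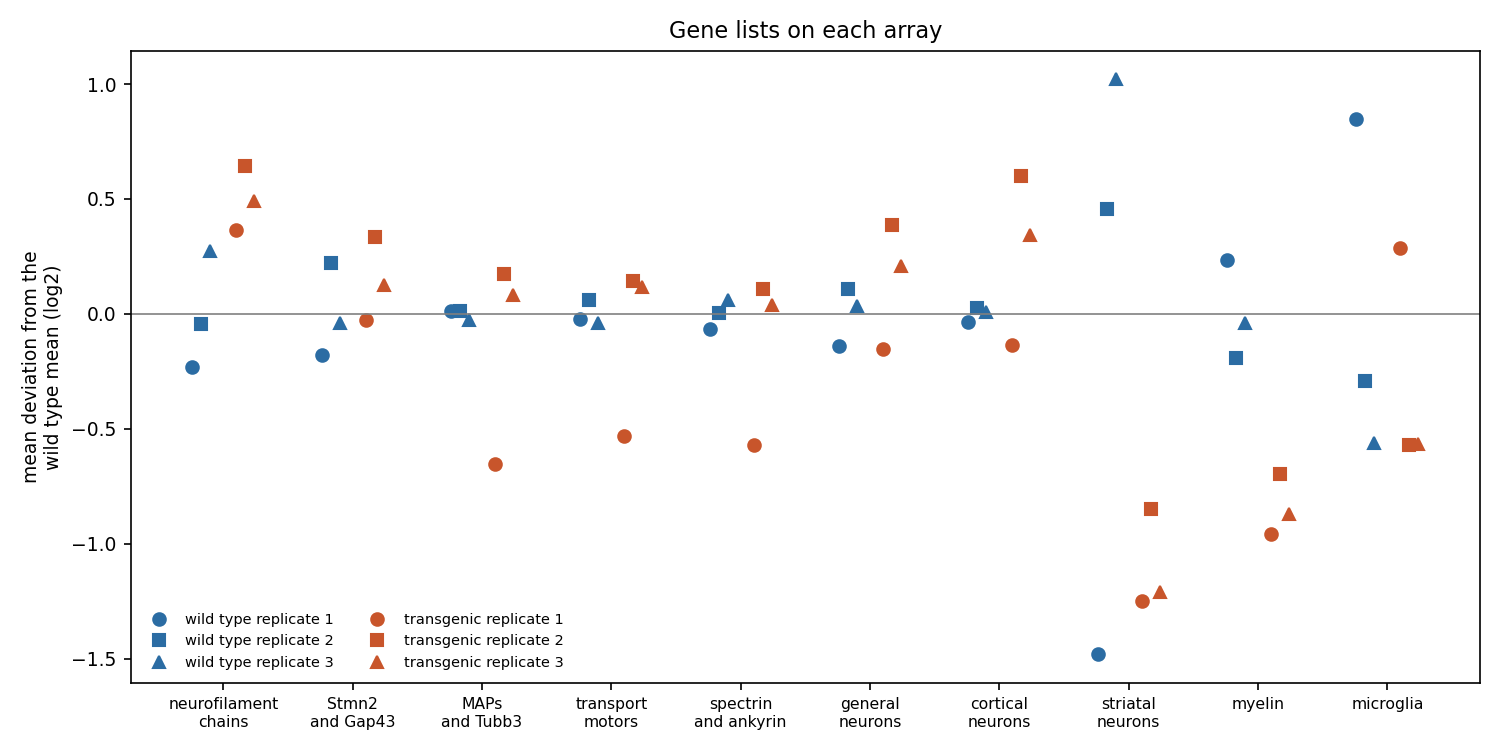
Each point is the mean over the genes of a list of their deviation from the wild type mean (log2) on 1 array, with wild type in blue, transgenic in orange and the replicate given by the symbol. The neurofilament chains lie at 0.37 to 0.65 on the transgenic arrays, the MAPs with Tubb3 at -0.65 in transgenic replicate 1, and the striatal list between -1.48 and 1.02 within the wild type group.

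Genes outside the 10 were also ranked by how closely they followed the mean of Nefl, Nefm and Nefh over the 6 arrays. Of 5751 genes with a mean level of at least 7, 206 had a Pearson correlation of at least 0.9 and 26 of at most -0.9, so single names carry little weight. The 6 closest were Tspyl1 (0.994), Lratd1 (0.992), Zfp771 (0.985), Bola3 (0.982), Ndufc2 (0.981) and Leprotl1 (0.978). Lratd1 also matched in size, at 6.73, 6.98 and 7.52 in wild type and 7.48, 7.76 and 7.63 in transgenic lesions. The 3 most opposed were Axl (-0.989), a receptor tyrosine kinase of phagocytes and glia, Msn (-0.978), the membrane-cytoskeleton linker moesin, and Cd81 (-0.955), a tetraspanin. Msn was above all transgenic arrays in all wild type lesions, with its lowest wild type array at 7.28 and its highest transgenic array at 7.09.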

How the data were processed

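Each of 6 lesions had 1 array, for which the authors deposited RMA intensities made in Expression Console of Affymetrix (per the submitters' processing notes; versions and genome build not given in the sources used here). They were linear (medians 40.4 to 48.3, lowest value 3.73) and were turned to log2 without a pseudocount. The platform annotation gave 1 symbol for 23521 of 41345 probe sets, several for 1814 and none for 16010; only the first were named, and 0 columns belonged to unknown samples. Groups came from the sample titles. Differences were tested with limma (version 3.58.1, R 4.3.3) by lmFit and eBayes, two-sided, without a covariate. SDs are over 3 arrays, standard errors and 95% intervals are from the fit, and the number of arrays limits the precision (median SE 0.191). On simulated data with 41345 probe sets, limma recovered 34 of 100 changed by 1 and 94 of 100 changed by 2 on the log2 scale. It also called 6 unchanged probe sets. The simulated noise was independent between arrays and had the same SD in both groups, so recovery on the real arrays may differ. Within groups, the median SD over probe sets was 0.153 (wild type) and 0.262 (transgenic).

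The members and lists were chosen with earlier results of these data known, so no list was tested as a whole; lists are given as counts and medians. Named genes were the 10 members, the 4 genes of the smallest unadjusted p in each of 16 related lists (211 of 232 genes measured), and the 6 closest and 3 most opposed in pattern. Alternatives changed the normalization, the filter on dim probe sets, the probe sets used, the variance model, a replicate block, sex as a covariate and each array in turn. One, the second Nefm probe set, was added after the data were seen.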

Additional observations from a re-analysis of the deposited data

How the results depend on the processing

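Ina, Nefh, Nefl, Nefm and Stmn2 kept their direction under all 16 alternatives, and only Ina crossed the adjusted threshold, with array weights (difference 0.546, adjusted p 0.0257). With sex as a covariate the sign turned for Gap43 (0.0122), Mapt (0.135) and Map1b (0.11), and with array weights for Map2 (0.237). With 1 array left out, the difference ranged from -0.186 to 0.0383 for Gap43, -0.207 to 0.0104 for Mapt, -0.385 to 0.0511 for Map1b, -0.596 to 0.151 for Map2 and -0.11 to 0.296 for Tubb3. Members with an unadjusted p under 0.05 numbered 5 with array weights (26.1% of all probe sets) and 1 to 4 with 1 array left out (4.91% to 12.5%). Those without overlap numbered 2 to 6 with 1 array left out (22.4% to 33.1% of all probe sets). The median member difference was 0.464 with sex as a covariate and 0.0515 to 0.398 with 1 array left out. Over all probe sets, 2611 passed the adjusted threshold with array weights, 1481 with sex as a covariate and 0 to 335 with 1 array left out, the highest without transgenic replicate 2. An unadjusted p under 0.05 was reached by 10793 with array weights, 8604 with sex as a covariate, 2108 among probe sets with 1 symbol only, where fewer were tested, and 2031 to 5168 with 1 array left out. The causes of the other changes were not tested. Deviations of same-numbered arrays from their group means correlated at 0.0122, -0.0977 and -0.0682. These values show no pairing by replicate number, but with 3 arrays per group they cannot exclude one. With the replicate block Ina had an adjusted p of 0.627 and 3 members had an unadjusted p under 0.05 (7.25% of all probe sets), Nefl (0.0442) in addition to Ina and Nefh, while 0 probe sets passed the adjusted threshold. Signal over background could not be judged, since detection calls were not used here.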
